A study of Mus musculus with 12 samples.

Results

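The 50 genes described here encode proteins of the cell division cycle: the enzymes that license and copy DNA, the cyclins and kinases that time the steps, and the spindle, centromere and destruction machinery of mitosis. They were chosen by symbol from a list of such genes, and all 50 of them were among the 40760 genes of the count table and the 17418 kept by the filter on low counts. The libraries are bulk RNA-seq of CD140a+ (Pdgfra+) cells sorted from lungs of male mice, with 3 libraries in each of 4 groups: wild-type (WT) and Pear1-/-, each given vehicle or bleo. Bleo is bleomycin given into the airways, which injures the lung and is followed by fibrosis, and the vehicle groups received none. The study describes its mice as C57BL/6 and 8 to 12 weeks old unless otherwise stated, and its Pear1-/- mice as carrying a knockout-first allele, with a reporter cassette inserted within Pear1. The dose and the day of collection used for these libraries and the number of mice behind each are not given in the sources used here, so that p-values measure the spread between libraries, which may be technical.

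A cell that leaves rest passes from G1 into S phase, where DNA is copied, and then through G2 into mitosis. In G1 the helicase subunits Mcm2 to Mcm7 are loaded on DNA, and E2F factors turn on the genes for replication and nucleotide supply. A later wave, driven by the MuvB complex with Mybl2 and Foxm1, provides the cyclins, kinases and spindle proteins of mitosis, which are destroyed as the cell divides. In a bulk library, a higher level of such a transcript can come from more dividing cells or from more transcript per cell, and these cannot be told apart.

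The labels could not be checked on the targeted gene. Pear1 (ENSMUSG00000028073) had 576, 545 and 519 normalized counts in WT vehicle, 511, 501 and 547 in labelled Pear1-/- vehicle, 256, 239 and 266 in WT bleo and 355, 372 and 344 in labelled Pear1-/- bleo. It was thus not lower in labelled Pear1-/- libraries, and after bleo it was higher there, by 0.48 on the log2 scale (SE 0.08, adjusted p = 0.00012). The genotype of each library below is therefore its label. WT vehicle replicate 2 stood apart from its own group: a chi-square of its counts, divided by its degrees of freedom so that sampling noise gives 1, was 24.5 and 25.6 against the other WT vehicle libraries and between 1.80 and 2.82 against the 3 labelled Pear1-/- vehicle libraries. The same value was 1.71 between WT vehicle replicates 1 and 3, 1.48 to 5.18 within labelled Pear1-/- vehicle and 1.36 to 1.49 within the bleo groups. The counts of the 50 genes called in comparisons that use WT vehicle are given with it and without it, as are those of the other gene lists in WT, and so are the single genes of the 50 whose call it changed after bleo or in the difference of the bleo effects. The filter on low counts kept 20405 genes in the fit without it. Total counts ran from 6702948 to 10447101 per library.

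Levels are the deposited normalized counts (raw counts divided by a size factor per library), given for replicates 1, 2 and 3 in that order, or as mean ± SD with n = 3. Differences are log2 fold changes with their standard errors (SE) from edgeR's quasi-likelihood test, fitted over all 12 libraries and adjusted by the Benjamini-Hochberg method over 17418 genes. A gene is called where the adjusted p is below 0.05.

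**Figure D1:**
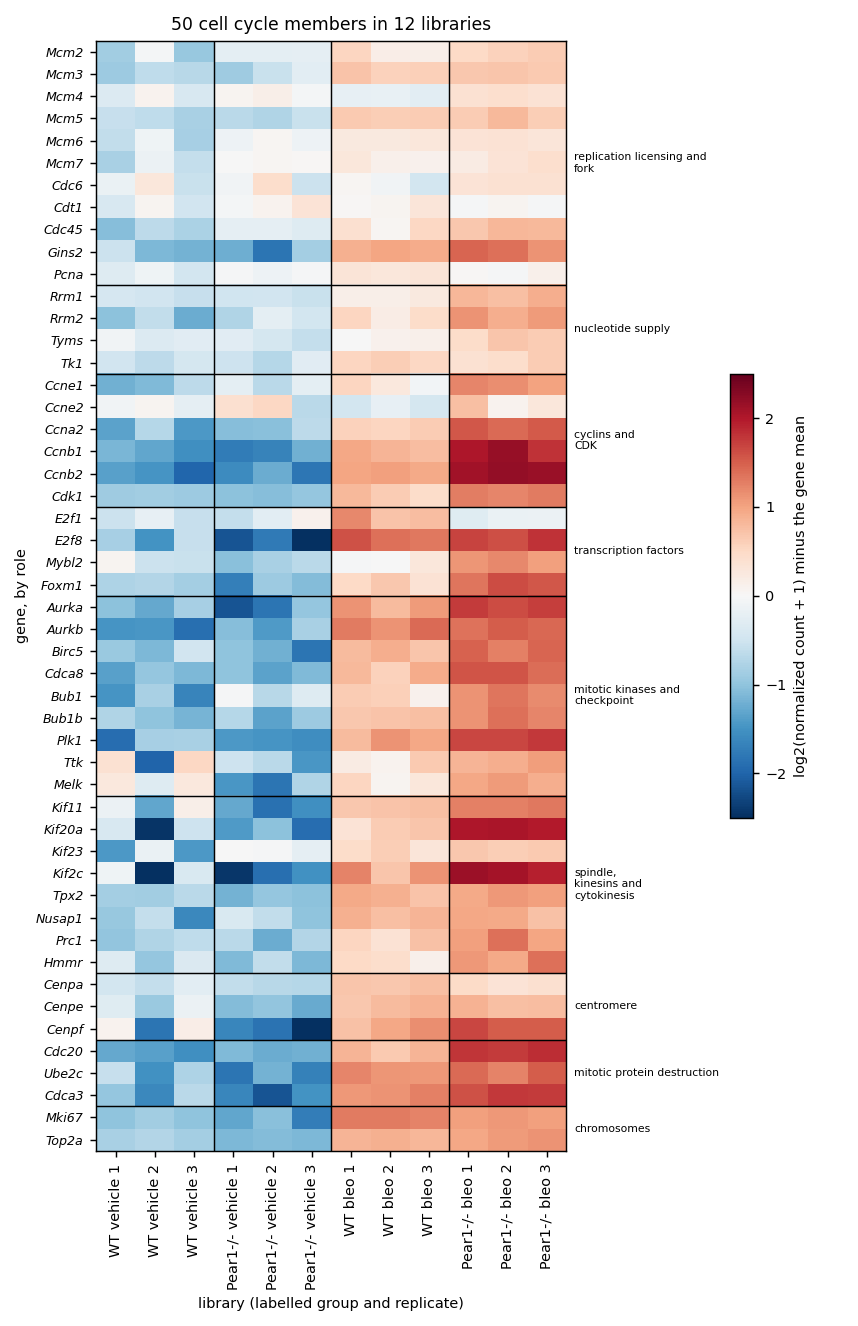
Heat map of the 50 genes (rows, ordered by role) in the 12 libraries (columns), coloured by log2(normalized count + 1) minus the gene's mean over the libraries, with the scale ending at 2.5 in either direction. The bleo columns are redder than the vehicle columns for nearly all genes, and the rows of Ccnb1, Ccnb2, Kif20a and Kif2c are reddest in the columns labelled Pear1-/- bleo.

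The DNA letters known from these waves are short, and the promoter sequences show how they are spread over the roles. RefSeq windows of 300 bases around the start site (250 before it and 50 after it, GRCm38.p6) were at hand for 42 of the 50 genes. The letters TTTGAA or TTCGAA (the CHR, read on both strands) stood in the window of 24 of the 42 genes, 57.1%, and of 21.7% of the 27025 genes with a window. Among the genes for mitosis 16 of 20 held them, and among those for replication and nucleotide supply 3 of 13. An E2F-like octamer (TTTCCCGC, TTTGGCGC, TTTCGCGC, TTCCCGCC or TTGGCGCC on either strand) stood in 9 of 42, 21.4% against 4.65% of all genes, with 7 of 13 in the replication and nucleotide set and 0 of 20 in the mitotic set. Ccnb1 and Cdk1, counted with the cyclins and not in the mitotic set, also held such an octamer. CCAAT, which NF-Y binds, stood in 31 of 42, 73.8% against 41.1%. The member windows also had more G and C than all windows, with medians of 58.3% and 52.7%.

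The 120 bases before the start site are printed for 4 genes with the CHR letters and 2 with E2F letters, as examples of each kind. Capitals mark CHR, E2F and CCAAT letters, which can overlap each other, and the start site follows the last base.
Cdc20 (chr4:118437344-118437463, - strand): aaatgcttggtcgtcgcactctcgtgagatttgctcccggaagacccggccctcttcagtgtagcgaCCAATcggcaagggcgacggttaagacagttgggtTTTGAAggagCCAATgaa
Cdk1 (chr10:69352913-69353032, - strand): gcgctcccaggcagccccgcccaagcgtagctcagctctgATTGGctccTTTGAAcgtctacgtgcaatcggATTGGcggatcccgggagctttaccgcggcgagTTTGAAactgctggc
Top2a (chr11:99024190-99024309, - strand): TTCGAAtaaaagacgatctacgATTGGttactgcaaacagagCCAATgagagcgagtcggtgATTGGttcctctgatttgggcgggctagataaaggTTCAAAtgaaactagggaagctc
Kif11 (chr19:37376262-37376381, + strand): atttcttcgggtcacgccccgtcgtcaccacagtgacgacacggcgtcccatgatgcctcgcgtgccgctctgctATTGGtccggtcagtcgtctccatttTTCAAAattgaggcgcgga
Mcm6 (chr1:128359706-128359825, - strand): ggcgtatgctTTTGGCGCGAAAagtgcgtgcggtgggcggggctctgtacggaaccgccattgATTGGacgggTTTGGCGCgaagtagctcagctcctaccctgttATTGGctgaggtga
Rrm1 (chr7:102441575-102441694, + strand): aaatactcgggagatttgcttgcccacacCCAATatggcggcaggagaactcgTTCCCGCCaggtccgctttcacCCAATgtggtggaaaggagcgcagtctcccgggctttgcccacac
Cdc20, Cdk1, Top2a and Kif11 hold the CHR letters close to the start site and at least 1 CCAAT before them. Mcm6 holds 2 E2F-like stretches, the first of which reads as such on both strands, and Rrm1 holds 1. A match is only a run of letters, and binding was not measured.

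The first comparison asks how bleo changed these genes in wild-type mice. In WT bleo 44 of the 50 genes were higher than in WT vehicle and 0 were lower, with a median log2 fold change of 1.36 over the 50 against -0.07 over all genes tested. The count was 45 higher and 0 lower without WT vehicle replicate 2, beside 31.7% and 44.7% of all genes in that fit, with 44 of them called in both fits. Of all genes tested 31.4% were higher and 36.6% lower. By the study's stricter rule, which also asks for a fold above 2, 36 of the 50 genes were higher, beside 10.5% of all genes, and 0 were lower, beside 23.5%. These counts were also 36 and 0 without WT vehicle replicate 2, beside 11.4% and 33.7%. In labelled Pear1-/- bleo 45 genes were higher than in labelled Pear1-/- vehicle and 0 were lower, with a median of 2.06 against -0.05 over all genes. Of all genes 28.9% were higher and 33.4% lower there, and with a fold above 2 it was 39 genes beside 8.38% of all genes, and 0 lower beside 19.4%. At an unadjusted p under 0.05, edgeR also put 0 of the 50 lower in either comparison, beside 38.0% of all genes in WT and 35.3% in labelled Pear1-/- libraries. DESeq2 and limma also put 0 lower at their adjusted p, beside 36.4% and 35.7% of all genes in WT and 32.4% and 32.6% in labelled Pear1-/- libraries.

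The summed normalized count of the 50 genes was 4702, 5148 and 4582 in WT vehicle, 5026, 5148 and 5089 in labelled Pear1-/- vehicle, 10769.5, 10353 and 10494 in WT bleo and 13367, 13570.3 and 13668 in labelled Pear1-/- bleo. The bleo groups did not overlap each other or the vehicle groups. The median log2 fold change was 1.68 over the 23 genes for mitosis and 0.75 over the 15 for replication and nucleotide supply in WT (1.70 and 1.06 without WT vehicle replicate 2), and 2.58 and 0.997 in labelled Pear1-/- libraries. The mitotic sum divided by the replication sum was 0.46, 0.311 and 0.518 in WT vehicle, 0.327, 0.288 and 0.285 in labelled Pear1-/- vehicle, 0.707, 0.728 and 0.733 in WT bleo and 0.877, 0.853 and 0.848 in labelled Pear1-/- bleo. In this ratio too the groups after bleo lay apart, and WT vehicle replicate 2 lay within the range of labelled Pear1-/- vehicle.

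**Figure D2:**
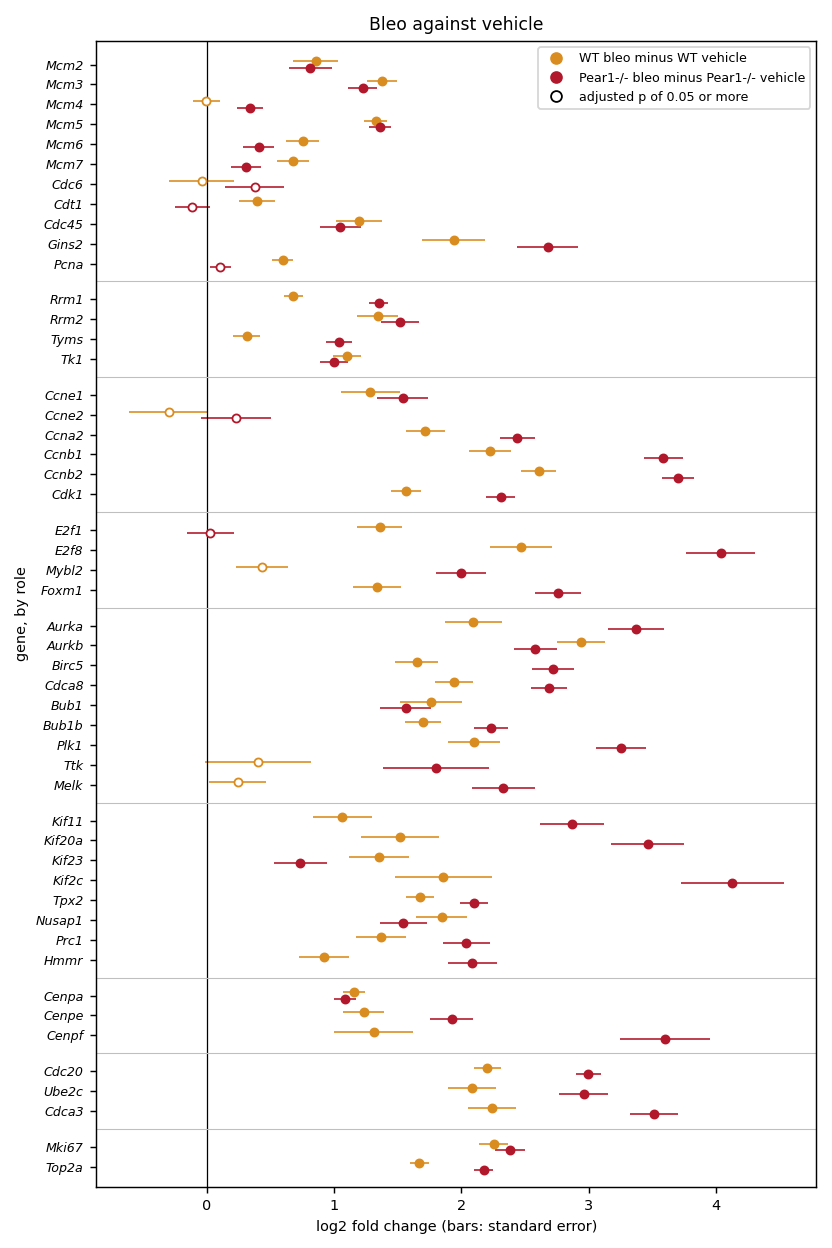
Log2 fold change of each gene (rows, by role) between bleo and vehicle, in WT (orange) and in labelled Pear1-/- libraries (red), with bars for the standard error and open points where the adjusted p was 0.05 or more. Nearly all points lie right of 0, from -0.30 for Ccne2 to 4.13 for Kif2c, and the red points of Kif2c, E2f8 and Ccnb2 lie furthest right.

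Mki67 (chr7:135689784-135716361), whose protein coats mitotic chromosomes and is the usual stain for cycling cells, was among the clearest. Its normalized counts were 88.5, 97.4 and 89.3 in WT vehicle, 72, 86.3 and 53.5 in labelled Pear1-/- vehicle, 445, 441 and 422 in WT bleo and 367, 379 and 365 in labelled Pear1-/- bleo. The vehicle and bleo libraries were far apart, and the log2 fold change was 2.25 (SE 0.11, adjusted p = 1.6e-10) in WT and 2.38 (SE 0.12, adjusted p = 1.71e-10) in labelled Pear1-/- libraries. Top2a (chr11:98992943-99024189), the topoisomerase that untangles DNA before division, had 148, 157 and 143 in WT vehicle, 118, 122 and 119 in labelled Pear1-/- vehicle, 471, 480.3 and 466 in WT bleo and 507, 548 and 567 in labelled Pear1-/- bleo. Its log2 fold changes were 1.67 (SE 0.08, adjusted p = 5.14e-11) and 2.17 (SE 0.08, adjusted p = 4.53e-12).

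Not all replication licensing and fork genes rose. Of 11, 9 were higher in WT bleo and 8 in labelled Pear1-/- bleo, and without WT vehicle replicate 2 the first count was 10. Mcm2, a helicase subunit, had 153, 271 and 145 in WT vehicle, 236, 236 and 240.1 in labelled Pear1-/- vehicle, 407, 314 and 309 in WT bleo and 393, 417 and 438 in labelled Pear1-/- bleo. WT vehicle replicate 2, at 271, lay above the other WT vehicle libraries and nearer to WT bleo. The log2 fold changes were 0.86 (SE 0.18, adjusted p = 0.00051), or 1.28 (adjusted p = 3.18e-13) without that library, and 0.81 (SE 0.17, adjusted p = 0.000628). Mcm5, another subunit, had 160.1, 152 and 136 in WT vehicle, 149, 142 and 163 in labelled Pear1-/- vehicle, 377, 367 and 372 in WT bleo and 370.3, 421 and 366 in labelled Pear1-/- bleo, with no overlap between vehicle and bleo and changes of 1.33 (SE 0.09, adjusted p = 5.91e-09) and 1.36 (SE 0.09, adjusted p = 5.23e-09), whose difference was 0.03 (adjusted p = 0.872). Mcm3 rose by 1.38 and 1.22, Mcm6 by 0.75 and 0.41 and Mcm7 by 0.68 and 0.31 on the log2 scale.

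Mcm4 was the 1 helicase subunit not called in WT. It had 353, 474 and 338 in WT vehicle, 473, 496 and 431 in labelled Pear1-/- vehicle, 389, 393 and 372 in WT bleo and 587, 601 and 579.5 in labelled Pear1-/- bleo, so that WT bleo lay within the spread of WT vehicle, with a log2 fold change of -0.01 (SE 0.11, adjusted p = 0.967). This was 0.23 (adjusted p = 0.0136) without WT vehicle replicate 2. In labelled Pear1-/- libraries it was 0.34 (SE 0.10, adjusted p = 0.00923).

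Cdc6 and Cdt1 load the helicase. Cdc6 had 48.5, 66 and 36.6 in WT vehicle, 51.1, 74.2 and 37.1 in labelled Pear1-/- vehicle, 56, 51 and 39.5 in WT bleo and 69.3, 71.3 and 71.5 in labelled Pear1-/- bleo, and the groups overlapped, with log2 fold changes of -0.04 (SE 0.25, adjusted p = 0.9) and 0.38 (SE 0.23, adjusted p = 0.175). Cdt1 had 119, 164 and 112 in WT vehicle, 152, 166 and 198 in labelled Pear1-/- vehicle, 161, 164 and 194 in WT bleo and 154, 165 and 154 in labelled Pear1-/- bleo. It was called in WT, at 0.40 (SE 0.14, adjusted p = 0.024), or 0.66 (adjusted p = 3.55e-05) without WT vehicle replicate 2, and its value in labelled Pear1-/- libraries was -0.11 (SE 0.14, adjusted p = 0.49).

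Pcna (chr2:132249162-132253314), the sliding clamp of the DNA polymerases, had 495, 574 and 449.9 in WT vehicle, 599, 566 and 606 in labelled Pear1-/- vehicle, 769.6, 746 and 766 in WT bleo and 625, 603 and 672 in labelled Pear1-/- bleo. WT bleo lay above all other libraries, at 0.60 (SE 0.08, adjusted p = 1.42e-05) from WT vehicle, and labelled Pear1-/- bleo overlapped its vehicle, at 0.11 (SE 0.08, adjusted p = 0.278). Cdc45 and Gins2, partners of the active helicase, rose by 1.19 and 1.94 in WT and by 1.05 and 2.68 in labelled Pear1-/- libraries. Gins2 shares 67.3% of its exon bases with another annotated gene, Gse1, and whether the counting used strand is not given in the sources used here.

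All 4 nucleotide supply genes were called in both genotypes. Rrm2, the S-phase subunit of ribonucleotide reductase, had 69.1, 92.3 and 59.5 in WT vehicle, 83.3, 119.7 and 103 in labelled Pear1-/- vehicle, 204, 161 and 194 in WT bleo and 309.9, 267 and 297 in labelled Pear1-/- bleo. The log2 fold changes were 1.34 (SE 0.16, adjusted p = 3.51e-06) and 1.52 (SE 0.15, adjusted p = 4.07e-07), and the bleo libraries of both genotypes lay above every vehicle library. Tyms, which makes thymidylate, had 189, 159 and 166 in WT vehicle, 165, 148 and 132 in labelled Pear1-/- vehicle, 200.2, 215 and 219 in WT bleo and 276, 327 and 314 in labelled Pear1-/- bleo. Its change was smaller in WT, 0.32 (SE 0.11, adjusted p = 0.016), where 4 other settings lost the call, than in labelled Pear1-/- libraries, 1.04 (SE 0.10, adjusted p = 5.05e-07). Rrm1, the large reductase subunit, rose by 0.68 and 1.35, and Tk1, a thymidine kinase, by 1.1 and 1.0.

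Of the 6 genes for cyclins and Cdk1, 5 rose in each genotype. Ccne1, the cyclin of S-phase entry, had 17, 18.3 and 25.2 in WT vehicle, 34.1, 25 and 33.8 in labelled Pear1-/- vehicle, 58.8, 49 and 38.5 in WT bleo and 95, 92 and 82 in labelled Pear1-/- bleo, with log2 fold changes of 1.29 (SE 0.23, adjusted p = 0.000184) and 1.54 (SE 0.20, adjusted p = 9.04e-06). Its relative Ccne2 had 30.3, 33.5 and 27.5 in WT vehicle, 42.6, 46.4 and 19.6 in labelled Pear1-/- vehicle, 23, 27.5 and 23.3 in WT bleo and 55.1, 34.4 and 39.1 in labelled Pear1-/- bleo, and the vehicle and bleo libraries overlapped, at -0.30 (SE 0.31, adjusted p = 0.406) and 0.23 (SE 0.28, adjusted p = 0.482). These counts are low, between 18 and 62 per library.

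Ccna2, the cyclin of S phase and G2, had 55.8, 87.3 and 52.7 in WT vehicle, 68.2, 68.6 and 90.6 in labelled Pear1-/- vehicle, 214, 209 and 223 in WT bleo and 420.0, 386 and 418 in labelled Pear1-/- bleo. Its changes were 1.72 (SE 0.15, adjusted p = 1.14e-07) and 2.44 (SE 0.14, adjusted p = 1.09e-09). Ccnb1 (chr13:100778650-100786570), the mitotic cyclin, had 36.4, 32.5 and 27.5 in WT vehicle, 23.7, 25 and 34.9 in labelled Pear1-/- vehicle, 159.8, 147 and 141 in WT bleo and 336, 370.5 and 288 in labelled Pear1-/- bleo. The 3 groups of vehicle, WT bleo and labelled Pear1-/- bleo values were well separated, with changes of 2.23 (SE 0.17, adjusted p = 1.41e-08) and 3.58 (SE 0.15, adjusted p = 3.81e-11).

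Ccnb2, the other B-type cyclin, had 49.7, 45.7 and 32.1 in WT vehicle, 42.6, 53.8 and 36 in labelled Pear1-/- vehicle, 256, 264 and 251 in WT bleo and 557, 597 and 580.5 in labelled Pear1-/- bleo. It was among the 3 highest changes in WT, 2.61 (SE 0.14, adjusted p = 2.46e-10), and in labelled Pear1-/- libraries, 3.70 (SE 0.12, adjusted p = 2.98e-12), a fold of 13. Cdk1, the kinase both B-type cyclins activate, had 54.6, 54.8 and 53.8 in WT vehicle, 49.2, 48.2 and 51.3 in labelled Pear1-/- vehicle, 178, 159 and 141 in WT bleo and 246, 239 and 251 in labelled Pear1-/- bleo. Every bleo library lay above every vehicle library, although WT bleo spread more than the other groups, and the changes were 1.56 (SE 0.12, adjusted p = 1.83e-08) and 2.31 (SE 0.11, adjusted p = 1.76e-10).

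The 4 transcription factors behaved differently from each other. E2f1 (chr2:154559407-154569892), an activator of S-phase genes, had 69.1, 87.3 and 67.5 in WT vehicle, 66.3, 84.4 and 109 in labelled Pear1-/- vehicle, 232, 166 and 173 in WT bleo and 81.7, 90.3 and 90.6 in labelled Pear1-/- bleo. It rose in WT bleo, by 1.36 (SE 0.18, adjusted p = 7.78e-06), while labelled Pear1-/- bleo lay within the range of the vehicle libraries, at 0.03 (SE 0.18, adjusted p = 0.904). Foxm1, an activator of mitotic genes, had 31.5, 32.5 and 29.8 in WT vehicle, 16.1, 28.8 and 25.1 in labelled Pear1-/- vehicle, 77.1, 87.7 and 70.9 in WT bleo and 140.3, 170.2 and 163 in labelled Pear1-/- bleo. It rose in both, by 1.34 (SE 0.19, adjusted p = 1.55e-05) and 2.76 (SE 0.18, adjusted p = 4.57e-09).

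E2f8, an atypical E2F that represses transcription, had 13.3, 8.12 and 16 in WT vehicle, 4.73, 6.49 and 3.27 in labelled Pear1-/- vehicle, 76.2, 65.3 and 62.8 in WT bleo and 80.8, 77.4 and 88.6 in labelled Pear1-/- bleo. Its vehicle levels were very low, from 3 to 7 raw counts in labelled Pear1-/- libraries, and the changes were 2.47 (SE 0.24, adjusted p = 3.24e-07) and 4.04 (SE 0.27, adjusted p = 6.32e-09). Mybl2 had 48.5, 31.5 and 30.9 in WT vehicle, 21.8, 26 and 28.4 in labelled Pear1-/- vehicle, 45, 45.9 and 56.7 in WT bleo and 100.3, 107 and 94.4 in labelled Pear1-/- bleo. It was called in labelled Pear1-/- libraries, at 1.99 (SE 0.20, adjusted p = 4.75e-07), and its value in WT was 0.43 (SE 0.20, adjusted p = 0.0734).

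Of 9 mitotic kinases and checkpoint genes 7 rose in WT and 9 in labelled Pear1-/- libraries. Aurka, the spindle pole kinase, had 21.8, 18.3 and 25.2 in WT vehicle, 9.47, 12.1 and 22.9 in labelled Pear1-/- vehicle, 100.1, 79.5 and 96.2 in WT bleo and 155, 143 and 153 in labelled Pear1-/- bleo, with changes of 2.09 (SE 0.22, adjusted p = 8e-07) and 3.37 (SE 0.22, adjusted p = 5.01e-09). Aurkb, the kinase of the chromosomal passenger complex, had 17, 17.2 and 12.6 in WT vehicle, 22.7, 17.6 and 27.3 in labelled Pear1-/- vehicle, 121, 107 and 132 in WT bleo and 127, 141 and 133 in labelled Pear1-/- bleo. It had the highest change of the 50 in WT, 2.94 (SE 0.19, adjusted p = 2.48e-09), and one of 2.58 (SE 0.17, adjusted p = 5.3e-09) in labelled Pear1-/- libraries.

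Birc5 (survivin), a partner of Aurkb, had 70.3, 60.9 and 96.2 in WT vehicle, 66.3, 57.5 and 37.1 in labelled Pear1-/- vehicle, 233, 254 and 218 in WT bleo and 377, 322 and 369.8 in labelled Pear1-/- bleo. Its changes were 1.65 (SE 0.17, adjusted p = 5.49e-07) and 2.72 (SE 0.17, adjusted p = 2.62e-09). Plk1, which drives mitotic entry, had 13.3, 29.4 and 29.8 in WT vehicle, 18.9, 18.6 and 17.5 in labelled Pear1-/- vehicle, 91.8, 117 and 104 in WT bleo and 171, 172 and 183 in labelled Pear1-/- bleo. Vehicle libraries did not exceed 29.8, and the changes were 2.1 (SE 0.20, adjusted p = 3.16e-07) and 3.25 (SE 0.20, adjusted p = 2.3e-09). Cdca8 rose by 1.94 and 2.69 and Bub1b, of the spindle checkpoint, by 1.70 and 2.23.

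Bub1, also of the checkpoint, had 19.4, 31.5 and 17.2 in WT vehicle, 54.9, 34.3 and 44.7 in labelled Pear1-/- vehicle, 87.3, 84.6 and 60.7 in WT bleo and 123, 143 and 129 in labelled Pear1-/- bleo, with changes of 1.76 (SE 0.24, adjusted p = 1.22e-05) and 1.56 (SE 0.20, adjusted p = 7.82e-06). Ttk and Melk were the 2 kinases not called in WT. Melk had 58.2, 38.6 and 58.4 in WT vehicle, 17, 13 and 28.4 in labelled Pear1-/- vehicle, 70.7, 51 and 58.7 in WT bleo and 95, 102 and 91.5 in labelled Pear1-/- bleo. WT vehicle overlapped WT bleo, at 0.24 (SE 0.23, adjusted p = 0.354), while labelled Pear1-/- libraries did not overlap, at 2.33 (SE 0.24, adjusted p = 9.76e-07). Ttk, a checkpoint kinase, was at 0.40 (adjusted p = 0.403) in WT, or -0.04 (adjusted p = 0.89) without WT vehicle replicate 2, and rose by 1.80 in labelled Pear1-/- libraries.

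All 8 spindle, kinesin and cytokinesis genes rose in both genotypes. Kif11, the motor that pushes spindle poles apart, had 76.4, 33.5 and 93.9 in WT vehicle, 34.1, 22.3 and 28.4 in labelled Pear1-/- vehicle, 136, 139.7 and 142 in WT bleo and 202, 204 and 212 in labelled Pear1-/- bleo. WT vehicle replicate 2, at 33.5, lay with the labelled Pear1-/- vehicle libraries, and the changes were 1.06 (SE 0.23, adjusted p = 0.000848), or 0.78 (adjusted p = 7.66e-06) without it, and 2.87 (SE 0.25, adjusted p = 1.33e-07). Tpx2, an activator of Aurka, had 66.7, 66 and 75.6 in WT vehicle, 53, 62.2 and 58.9 in labelled Pear1-/- vehicle, 234, 226 and 199 in WT bleo and 237, 258 and 249.7 in labelled Pear1-/- bleo. Its changes were 1.68 (SE 0.11, adjusted p = 3.6e-09) and 2.1 (SE 0.11, adjusted p = 3.85e-10).

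Kif2c, a motor that takes microtubules apart, had 27.9, 3.04 and 22.9 in WT vehicle, 4.73, 7.42 and 9.82 in labelled Pear1-/- vehicle, 71.6, 49 and 66.8 in WT bleo and 136, 129.8 and 118 in labelled Pear1-/- bleo. It had the highest change of the 50 in labelled Pear1-/- libraries, 4.13 (SE 0.40, adjusted p = 4.18e-07), from vehicle levels of 5 to 9 raw counts, and 1.86 (SE 0.38, adjusted p = 0.000494) in WT, or 1.38 (adjusted p = 2.53e-06) without WT vehicle replicate 2. Kif23, a motor of cytokinesis, had 42.4, 104 and 42.4 in WT vehicle, 116, 115 and 100.4 in labelled Pear1-/- vehicle, 162, 181 and 145 in WT bleo and 186, 179 and 186 in labelled Pear1-/- bleo. WT vehicle replicate 2 lay beside labelled Pear1-/- vehicle, and the changes were 1.35 (SE 0.23, adjusted p = 0.00011), or 2.01 (adjusted p = 1.41e-14) without it, and 0.74 (SE 0.21, adjusted p = 0.00642). Of the genes for microtubule-binding proteins, Nusap1 rose by 1.85 and 1.54, Prc1 by 1.37 and 2.04, and Hmmr by 0.92 and 2.09.

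The 3 centromere genes rose. Cenpa, the histone that marks the centromere, had 263, 240.5 and 303 in WT vehicle, 239, 224 and 222 in labelled Pear1-/- vehicle, 591, 581 and 614 in WT bleo and 507, 459.9 and 483 in labelled Pear1-/- bleo, with changes of 1.16 (SE 0.09, adjusted p = 1.55e-08) and 1.09 (SE 0.09, adjusted p = 5.06e-08). Cenpf, a large kinetochore protein, had 52.1, 13.2 and 55 in WT vehicle, 15.2, 13 and 7.64 in labelled Pear1-/- vehicle, 82.7, 96.9 and 111 in WT bleo and 158, 142 and 142 in labelled Pear1-/- bleo. Its changes were 1.31 (SE 0.31, adjusted p = 0.00158), or 0.93 (adjusted p = 1.9e-05) without WT vehicle replicate 2, and 3.60 (SE 0.35, adjusted p = 4.92e-07). Cenpe, a kinetochore motor, rose by 1.23 and 1.92.

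The 3 genes for destruction of mitotic proteins rose by more than 2 on the log2 scale in both genotypes. Cdc20 (chr4:118432901-118437352), which activates the anaphase-promoting complex, had 55.8, 52.8 and 46.9 in WT vehicle, 63.4, 57.5 and 58.9 in labelled Pear1-/- vehicle, 248, 215 and 247 in WT bleo and 477, 465 and 493 in labelled Pear1-/- bleo. The changes were 2.20 (SE 0.11, adjusted p = 9.16e-11) and 3.0 (SE 0.10, adjusted p = 1.79e-12), folds of 4.6 and 7.98. Ube2c, the ubiquitin carrier of that complex, had 55.8, 28.4 and 48.1 in WT vehicle, 22.7, 36.2 and 25.1 in labelled Pear1-/- vehicle, 194, 181 and 176 in WT bleo and 222, 197 and 239 in labelled Pear1-/- bleo. It rose by 2.09 (SE 0.19, adjusted p = 1.32e-07) and 2.96 (SE 0.19, adjusted p = 5.03e-09), and Cdca3, a trigger of mitotic entry, by 2.24 and 3.51.

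**Figure D3:**
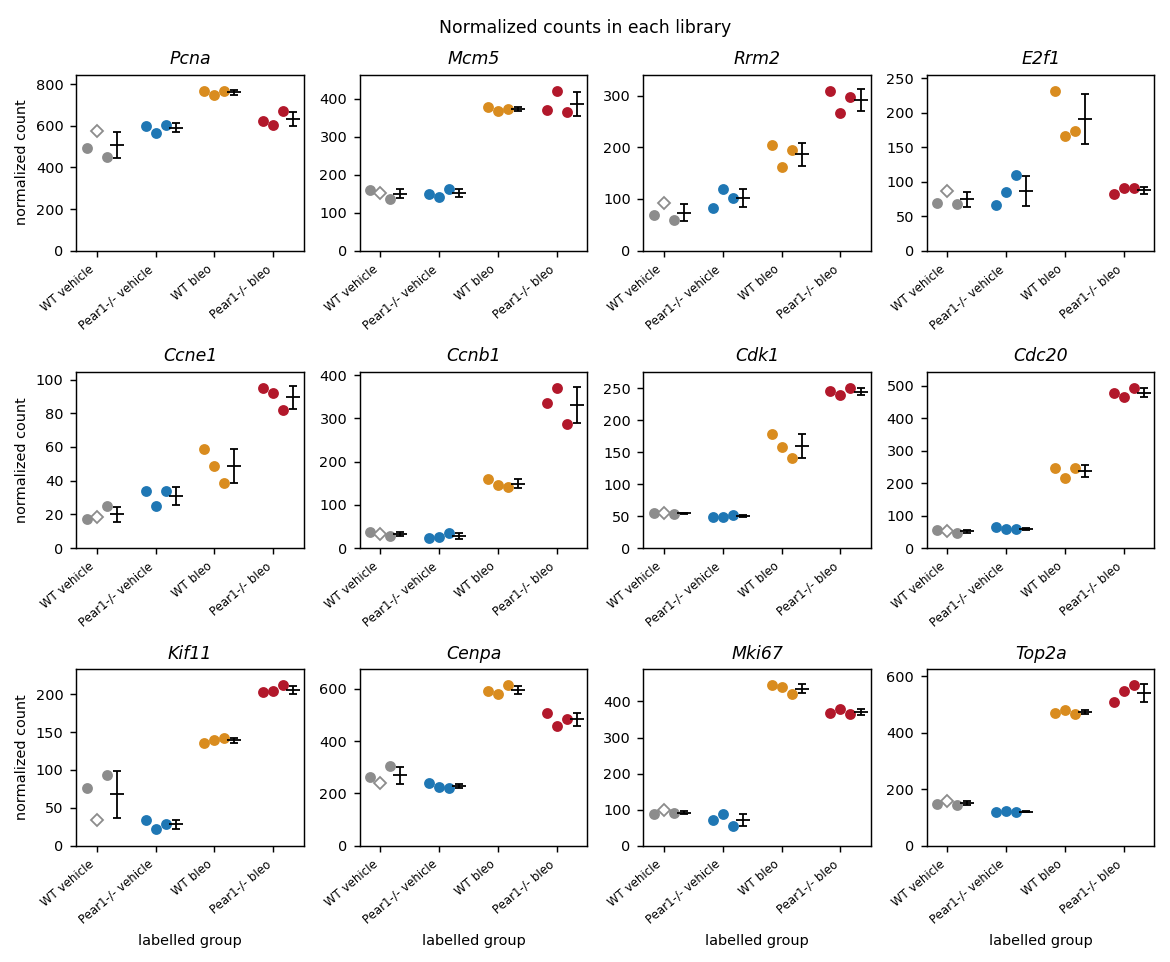
Normalized counts (vertical axes, from 0) of 12 genes in each library, by labelled group, with a point for each library and a bar for the mean ± SD of 3. The open diamond is WT vehicle replicate 2. The bleo points of E2f1 are highest in WT, those of Ccnb1, Ccne1, Cdc20 and Cdk1 highest in labelled Pear1-/- libraries, and those of Mcm5 overlap.

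The order of the genes by level changed with bleo. Per kilobase of exon, Pcna was the highest of the 50 in WT vehicle, at 23.8 CPM (counts scaled to library size) per kilobase, and Mcm4 was next, at 12.2. Ccnb2 stood at 3.12 there. In WT bleo Pcna was at 36 and Ccnb2 was next, at 19.1. In labelled Pear1-/- bleo Ccnb2 led, at 42.5, followed by Pcna at 29.7 and Cdc20 at 28.8, the last 2 lying close together. Cenpf, a long transcript, and E2f8 were the lowest of the 50 in both vehicle groups.

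The second comparison sets the labelled genotypes against each other after bleo. In labelled Pear1-/- bleo 28 of the 50 genes were higher than in WT bleo and 4 were lower, with a median log2 fold change of 0.54 against -0.01 over all genes. Of all genes 22.1% were higher and 23.9% lower. With a fold above 2 only 5 genes were higher, beside 6.26% of all genes, and 1 lower, beside 8.76%. The count of higher genes ran from 21 with limma to 34 with only these groups in the fit. Without WT vehicle replicate 2 it was 32 higher and 4 lower, beside 23.3% and 25.9% of all genes. That library enters here through the shared estimate of spread and through the genes kept by the filter, and these were not separated. This comparison shares its bleo libraries with those above, so the values are not independent of them.

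By role, all 6 genes for cyclins and Cdk1 were higher, with 7 of 9 mitotic kinases and checkpoint genes and 5 of 8 spindle genes. So were 2 of 3 destruction genes and 3 of 4 nucleotide supply genes, with 0 lower in any of these roles. Of 11 licensing and fork genes 2 were higher and 1 lower, beside 22.1% and 23.9% of all genes. Without WT vehicle replicate 2 these were 4 and 1, beside 23.3% and 25.9%. Of 4 transcription factors 2 were higher and 1 lower, of 2 chromosome genes 1 and 1, and of 3 centromere genes 0 and 1. The median was 0.59 over the 23 mitotic genes and 0.26 over the 15 for replication and nucleotide supply. Over the 24 genes whose promoter window held the CHR letters it was 0.56, and over the 18 without them 0.29. For the E2F-like octamers it was 0.14 over the 9 genes with one and 0.55 over the 33 without, and for CCAAT 0.53 over 31 and 0.52 over 11. CHR letters stood in 16 of 20 mitotic and 3 of 13 replication and nucleotide genes, and the octamers in 0 of 20 and 7 of 13. Medians by these letters are thus not separate from those by role.

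**Figure D4:**
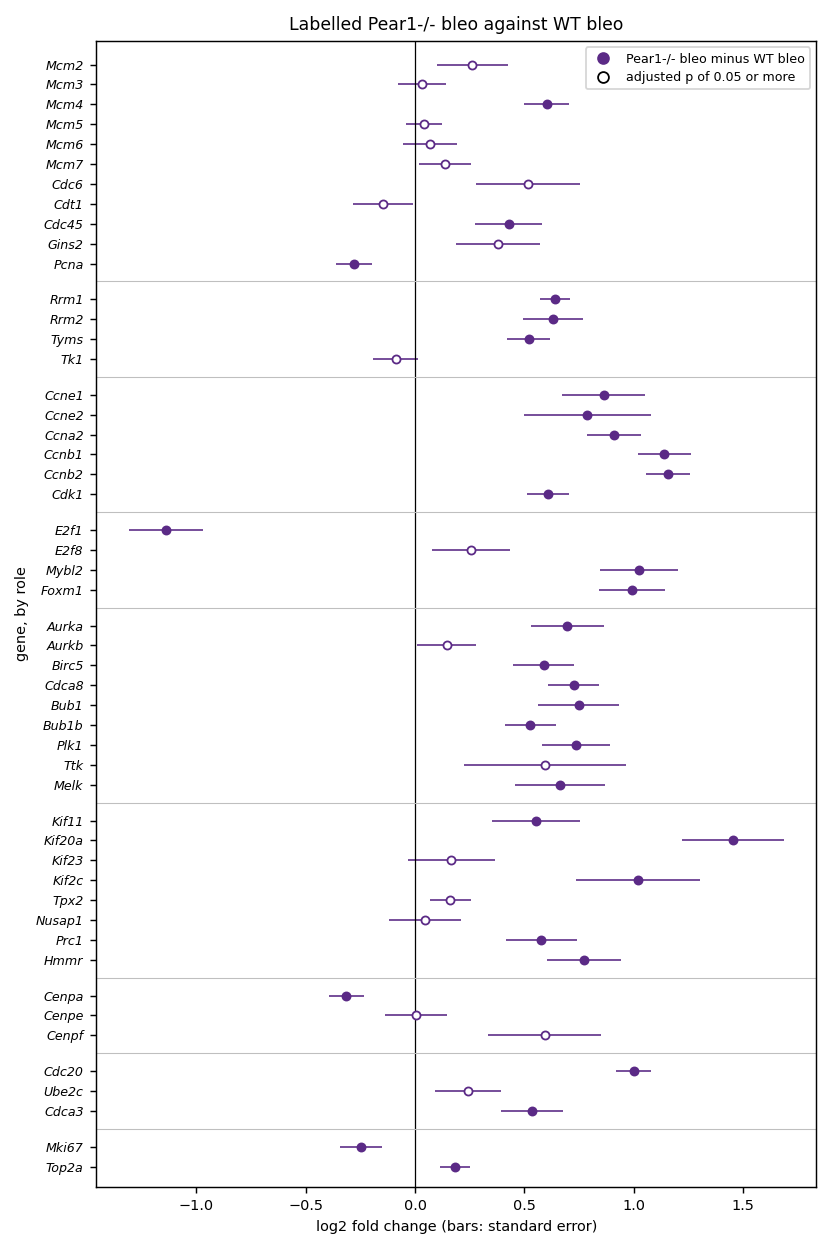
Log2 fold change of each gene (rows, by role) between labelled Pear1-/- bleo and WT bleo, with bars for the standard error and open points where the adjusted p was 0.05 or more. Kif20a lies furthest right, at 1.45, and E2f1 furthest left, at -1.14.

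The 3 highest were Kif20a, Ccnb2 and Ccnb1. Kif20a, a kinesin of cytokinesis, had 44.9, 10.1 and 41.2 in WT vehicle, 21.8, 28.8 and 15.3 in labelled Pear1-/- vehicle, 76.2, 93.8 and 97.2 in WT bleo and 246, 251 and 240.2 in labelled Pear1-/- bleo, a difference of 1.45 (SE 0.23, adjusted p = 0.00011) between the bleo groups. It shares 29.3% of its exon bases with Cdc23. Ccnb2 differed by 1.16 (SE 0.10, adjusted p = 2.13e-07) and Ccnb1 by 1.14 (SE 0.12, adjusted p = 1.94e-06), both without overlap between the groups. Mybl2 was at 1.02 (SE 0.18, adjusted p = 0.000232), Kif2c at 1.02 (SE 0.28, adjusted p = 0.00831), Cdc20 at 1.0 (SE 0.08, adjusted p = 1.07e-07) and Foxm1 at 0.99 (SE 0.15, adjusted p = 6.37e-05), each again with all 3 libraries above all 3 of WT bleo.

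Smaller differences were spread over the other roles. Ccna2 was higher by 0.91, Ccne1 by 0.86, Ccne2 by 0.79 and Cdk1 by 0.61 on the log2 scale. Among mitotic kinases and their partners, Aurka was higher by 0.70, Plk1 by 0.74 and Birc5 by 0.59, and Aurkb was not called, at 0.14 (adjusted p = 0.405). Kif11 was at 0.55 (SE 0.20, adjusted p = 0.0342), a call lost when any 1 of the 6 bleo libraries was left out, with limma and with scaling by library size alone. Tpx2 was at 0.16 (adjusted p = 0.176) and Ube2c at 0.24 (adjusted p = 0.203).

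Of the genes for making DNA, Rrm1 was higher by 0.64, Rrm2 by 0.63, Tyms by 0.52, Mcm4 by 0.60 and Cdc45 by 0.43. Other helicase subunits did not pass, with Mcm2 at 0.26 (adjusted p = 0.204), Mcm3 at 0.03 (adjusted p = 0.854) and Mcm5 at 0.04 (adjusted p = 0.724). Mcm2 was called without WT vehicle replicate 2, at 0.25 (adjusted p = 0.0112), and Cdc6 went from 0.52 (adjusted p = 0.0892) to 0.50 (adjusted p = 0.02), Ttk from 0.60 (adjusted p = 0.205) to 0.59 (adjusted p = 0.00826) and Cenpf from 0.59 (adjusted p = 0.0725) to 0.59 (adjusted p = 0.000142).

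E2f1, Cenpa, Pcna and Mki67 were the 4 lower genes. E2f1 was lowest, at -1.14 (SE 0.17, adjusted p = 5.69e-05), with no library labelled Pear1-/- bleo above 90.6 and none of WT bleo below 166. Cenpa was at -0.31 (SE 0.08, adjusted p = 0.0054) and Pcna at -0.28 (SE 0.08, adjusted p = 0.011). Mki67 was at -0.25 (SE 0.10, adjusted p = 0.0458), and although its groups did not overlap, the call was lost in 12 of the other fits, among them DESeq2, limma and those that left out any 1 of the 6 bleo libraries. Top2a, higher at 0.18 (SE 0.07, adjusted p = 0.0373), likewise lost its call in 12 fits, those 6 and DESeq2 among them. Pcna lost its call in 5.

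The third comparison asks whether bleo acted differently in the 2 labelled genotypes, as the difference of the 2 bleo effects. The effect was larger in labelled Pear1-/- libraries for 24 of the 50 genes and smaller for 2, with a median difference of 0.67 against -0.0012 over all genes. Of all genes 17.9% were called larger and 19.1% smaller, a split of 3110 to 3332 genes that became 4053 to 2490 with scaling by library size alone, where 28 of the 50 were larger and 2 smaller. Without WT vehicle replicate 2 it was 23 larger and 8 smaller, with a median of 0.52, beside 20.4% and 26.0% of all genes in that fit, and 24 of the 26 genes called were called in both fits.

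The difference was greatest for Cenpf, 2.29 (SE 0.50, adjusted p = 0.00239), Kif2c, 2.27 (SE 0.62, adjusted p = 0.00944), and Melk, 2.09 (SE 0.34, adjusted p = 0.000224). These were also genes whose vehicle levels were lower in labelled Pear1-/- libraries and in WT vehicle replicate 2 than in WT vehicle replicates 1 and 3. Ccnb1 differed by 1.36 (SE 0.25, adjusted p = 0.000573), Cdk1 by 0.75 (SE 0.17, adjusted p = 0.00298) and Cdc20 by 0.79 (SE 0.15, adjusted p = 0.00083), and their vehicle groups differed by -0.22 (adjusted p = 0.487), -0.14 (adjusted p = 0.562) and 0.21 (adjusted p = 0.366). The 2 smaller effects were in E2f1, -1.33 (SE 0.26, adjusted p = 0.000928), and Pcna, -0.49 (SE 0.12, adjusted p = 0.00409). For the 15 replication and nucleotide supply genes the median difference was -0.04, and for the 23 mitotic genes 0.87.

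Of the 7 genes called only without WT vehicle replicate 2, 4 were in replication and 3 in mitosis. Mcm2 was at -0.04 (adjusted p = 0.916) with it and at -0.49 (adjusted p = 0.00622) without it. Kif23 went from -0.62 (adjusted p = 0.141) to -1.29 (adjusted p = 1.28e-06) and Cdt1 from -0.51 (adjusted p = 0.0582) to -0.79 (adjusted p = 0.000226). Mcm6 went from -0.34 (adjusted p = 0.146) to -0.67 (adjusted p = 3.11e-06), Mcm7 from -0.37 (adjusted p = 0.108) to -0.67 (adjusted p = 1.77e-05) and Nusap1 from -0.30 (adjusted p = 0.426) to -0.66 (adjusted p = 0.0412). Ttk, the 1 of the 7 with a larger effect, went from 1.40 (adjusted p = 0.0778) to 1.81 (adjusted p = 1.56e-05). Ccna2 lost its call, from 0.72 (adjusted p = 0.0153) to 0.36 (adjusted p = 0.151), and so did Cdca8, from 0.75 (adjusted p = 0.0134) to 0.56 (adjusted p = 0.0714). The calls for Ccna2 and Ube2c were each lost in 9 of 20 other fits.

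**Figure D5:**
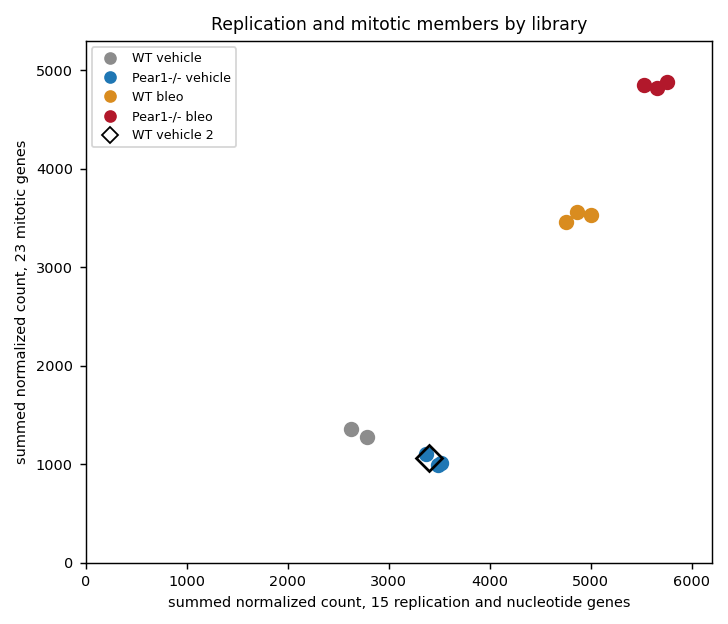
Summed normalized count of the 23 mitotic genes (vertical axis) against that of the 15 replication and nucleotide supply genes (horizontal axis), a point for each of the 12 libraries, both axes from 0. The bleo libraries form 2 separate groups by label, and WT vehicle replicate 2 (open diamond) lies among the labelled Pear1-/- vehicle libraries.

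The fourth comparison, of the vehicle groups with each other, changed with the libraries included. With all 12 libraries 1 gene, Mcm7, was higher in labelled Pear1-/- vehicle, at 0.51 (SE 0.13, adjusted p = 0.0426), and 4 were lower, Cenpf, Melk, Kif11 and Top2a. Of all genes 0.855% were higher and 3.65% lower, 149 to 635 genes, which became 131 to 1812 with scaling by library size alone. Without WT vehicle replicate 2 it was 13 higher and 13 lower, beside 25.5% and 29.7% of all genes in that fit, so that both counts lay near the share of all genes. Of these, 4 were called in both fits, and Top2a was not called. Without any 1 of the other 11 libraries edgeR called 0 genes in either direction, although at an unadjusted p under 0.05 between 5 and 11 were higher and between 8 and 12 lower. Of all genes between 6.56% and 13.9% were higher at that threshold in these fits and between 9.87% and 19.9% lower. DESeq2 on all 12 called 4 higher and 4 lower, beside 2.57% and 5.98% of all genes. Limma called 0 of the 50, beside 0% of all genes higher and 0.218% lower.

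In the fit without WT vehicle replicate 2, of the 15 replication and nucleotide supply genes 9 were higher in labelled Pear1-/- vehicle and 0 lower, and of the 23 mitotic genes 3 were higher and 12 lower, and the difference between these roles was not tested. The lowest values with all libraries were in Cenpf, -1.69 (SE 0.43, adjusted p = 0.0429), Melk, -1.43 (SE 0.27, adjusted p = 0.0368), and E2f8, -1.31 (SE 0.38, adjusted p = 0.053), and the highest in Bub1, 0.95 (SE 0.26, adjusted p = 0.0509), Kif23, 0.78 (SE 0.24, adjusted p = 0.0628), and Ccne1, 0.61 (SE 0.25, adjusted p = 0.116). With WT vehicle replicate 2 left out, Cenpf was at -2.07 (adjusted p = 4.41e-08), Kif11 at -1.53 (adjusted p = 2.12e-08), Bub1 at 1.35 (adjusted p = 0.000122) and Mcm2 at 0.74 (adjusted p = 3.38e-06).

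Beyond the 50, a further 94 cell cycle genes were read from a list, of which 92 passed the filter. The shares of all genes called are those given above for each comparison with all 12 libraries. Of 40 other mitotic genes 31 were higher in WT bleo than in WT vehicle and 3 lower, 35 higher and 3 lower in labelled Pear1-/- libraries, and 17 higher and 1 lower in labelled Pear1-/- bleo than in WT bleo. The counts in WT were 31 and 4 without WT vehicle replicate 2. The highest were Cdca5, a cohesin factor, at 3.09 (adjusted p = 4.9e-06), and Cep55, of cytokinesis, at 2.71 (adjusted p = 5.82e-07) in WT, and Pbk, 3.05 (adjusted p = 1.02e-06), and Ckap2, 3.03 (adjusted p = 4.74e-09), in labelled Pear1-/- libraries. Pttg1 (securin) fell in both, with log2 fold changes of -0.63 and -0.60, and Wee1, which holds Cdk1 inactive, was at -0.82 (adjusted p = 5.25e-05) in WT. Cdc25b was at -0.75 (adjusted p = 0.000308) in labelled Pear1-/- libraries. Between the bleo groups Cdc25c, a phosphatase that activates Cdk1, was highest, at 1.34 (adjusted p = 5.26e-05), with Ect2 at 1.2 (adjusted p = 0.00274), and Fbxo5, an inhibitor of the anaphase-promoting complex, was the 1 lower, at -0.65 (adjusted p = 0.011).

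Of 30 other replication genes 29 were tested. In WT 18 rose and 1 fell, in labelled Pear1-/- libraries 22 rose and 2 fell, and between the bleo groups 5 were higher and 0 lower. In WT it was 19 higher and 3 lower without WT vehicle replicate 2. Uhrf1, which copies DNA methylation, rose by 1.55 and 2.65, Gmnn (geminin) by 1.41 in WT and Gins1 by 2.03 in labelled Pear1-/- libraries. Hells, a chromatin remodeller, was the highest of those called between the bleo groups, at 0.84 (adjusted p = 0.00109). Ticrr fell in WT, at -1.03 (adjusted p = 0.023), and Rpa2, -0.37 (adjusted p = 0.0163), and Cdc7, -0.33 (adjusted p = 0.0388), in labelled Pear1-/- libraries.

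The G1 cyclins and kinases, which receive growth signals, moved less evenly. With Myc they were 7 genes, of which 4 were higher and 1 lower in WT, in labelled Pear1-/- libraries and between the bleo groups alike. The WT counts were 5 and 2 without WT vehicle replicate 2, beside 31.7% and 44.7% of all genes. Ccnd1, cyclin D1, had 255 ± 9.46 normalized counts in WT vehicle, 270.3 ± 3.46 in labelled Pear1-/- vehicle, 740.5 ± 68.8 in WT bleo and 768 ± 40.1 in labelled Pear1-/- bleo. It rose in both, by 1.54 and 1.51, and did not pass between the bleo groups, at 0.04 (adjusted p = 0.705). Cdk6, a partner of the D-type cyclins, rose by 1.71 and 1.23 and was lower in labelled Pear1-/- bleo than in WT bleo, at -0.62 (adjusted p = 3.45e-06). Cdk4 was higher there, at 0.46 (adjusted p = 8.02e-05), after rises of 0.55 and 0.85, and so were Cdk2, at 0.32 (adjusted p = 0.00889), Ccnd3, at 0.44 (adjusted p = 0.000881), and Ccnd2, at 0.27 (adjusted p = 0.00666). Myc was at -0.03 (adjusted p = 0.87) in WT and -0.75 (adjusted p = 0.00116) in labelled Pear1-/- libraries.

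CDK inhibitors, which stop the cycle, changed in both directions. Of the 6 tested, 1 was higher and 2 lower in WT, with or without WT vehicle replicate 2. In labelled Pear1-/- libraries it was 3 and 3, and between the bleo groups 2 and 1. Cdkn1a (p21), a p53 target, had 1604 ± 103, 1793 ± 64.4, 3692 ± 165 and 3624 ± 40.6 normalized counts in the same order of groups, with rises of 1.21 and 1.02. Cdkn1c (p57) fell, with log2 fold changes of -1.74 and -1.94. Cdkn2b (p15) had 23.4 ± 6.2, 15 ± 5.04, 33.9 ± 5.84 and 102 ± 8.7. It was at 0.56 (adjusted p = 0.0652) in WT, rose by 2.78 in labelled Pear1-/- libraries and was higher after bleo there than in WT, at 1.57 (adjusted p = 1.89e-05). Cdkn2c (p18) was likewise higher, at 1.13 (adjusted p = 1.07e-06), and Cdkn1b (p27) lower, at -0.44 (adjusted p = 0.0322). Cdkn2d was at 0.16 (adjusted p = 0.248). Cdkn2a had 0 to 6 counts per library and was not tested.

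Of 10 pocket proteins, repressor E2Fs and antiproliferative genes, 3 were higher and 2 lower in WT bleo, 4 and 3 in labelled Pear1-/- libraries, and 3 and 3 between the bleo groups, beside 31.4% and 36.6%, 28.9% and 33.4%, and 22.1% and 23.9% of all genes. The WT counts were 4 and 2 without WT vehicle replicate 2. Rb1, the retinoblastoma protein that holds E2F factors back, rose in WT, at 1.0 (adjusted p = 6.53e-06), and was lower in labelled Pear1-/- bleo than in WT bleo, at -0.74 (adjusted p = 0.000162). E2f4 was at 0.57 (adjusted p = 0.00193), Rbl2 at -0.60 (adjusted p = 8.63e-06) and Gas1 at -1.53 (adjusted p = 8.12e-11) in WT. In labelled Pear1-/- libraries, E2f7 was at 1.13 (adjusted p = 0.0183), Rbl1 at 0.63 (adjusted p = 0.000695), E2f6 at -0.79 (adjusted p = 0.00169) and Gas1 at -0.75 (adjusted p = 3.04e-07). Between the bleo groups Gas1 was at 0.94 (adjusted p = 6.5e-08), Btg2 at 0.37 (adjusted p = 5.74e-05) and E2f6 at -0.87 (adjusted p = 0.0012).

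Marker genes of other cells moved with the same groups. Beside the counts below stand 31.4% of all genes higher and 36.6% lower in WT bleo. These shares were 31.7% and 44.7% without WT vehicle replicate 2. They were 28.9% and 33.4% in labelled Pear1-/- libraries, and 22.1% and 23.9% between the bleo groups. The summed normalized count of 11 macrophage and monocyte markers ran from 14971 to 18155 in WT vehicle, from 17585 to 18904 in labelled Pear1-/- vehicle, from 104491 to 106176 in WT bleo and from 45447 to 46893 in labelled Pear1-/- bleo. Of these 11, 9 were higher and 1 lower after bleo in each genotype. Between the bleo groups 9 were lower in labelled Pear1-/- bleo and 0 higher. For 4 general leukocyte markers the sums were 9073 to 12650, 12300.2 to 13253, 33682 to 34900.1 and 17307 to 17537. In WT bleo 4 of these were higher, in labelled Pear1-/- bleo 3, and between the bleo groups 4 were lower. For 8 fibroblast markers, Pdgfra among them, the sums were 118296 to 141722, 141703 to 145031, 108427 to 109465 and 287052 to 296462, with 6 of 8 higher in labelled Pear1-/- bleo than in WT bleo. In WT bleo 2 of the 8 were higher than in WT vehicle and 6 lower, with Pdgfra itself at -1.74 (adjusted p = 8.51e-12). Against labelled Pear1-/- vehicle 4 of the 8 were higher and 4 lower, with Col1a1 at 2.18 (adjusted p = 1.17e-13) and Pdgfra at -0.80 (adjusted p = 7.35e-08). Plasma cell markers summed to 85627 to 154641 in WT vehicle, 147928 to 178919 in labelled Pear1-/- vehicle, 12502 to 13267 in WT bleo and 77718 to 80032 in labelled Pear1-/- bleo. After bleo 3 of these 4 were lower than in vehicle in each genotype, and 4 of 4 were higher in labelled Pear1-/- bleo than in WT bleo. Of 7 epithelial markers 5 were lower and 2 higher in WT bleo than in WT vehicle, 6 lower and 1 higher in labelled Pear1-/- bleo than in its vehicle, and 4 lower and 1 higher in labelled Pear1-/- bleo than in WT bleo. All 5 endothelial markers were lower after bleo in each genotype, with 1 higher and 1 lower between the bleo groups. Of 7 T and NK cell markers 6 were lower in WT and 7 in labelled Pear1-/- libraries, and 5 were lower in labelled Pear1-/- bleo than in WT bleo. Of 4 neutrophil markers 3 and 4 were lower, and 1 was higher between the bleo groups. Of 4 B cell markers 3 were higher in WT, 3 were lower in labelled Pear1-/- libraries and 3 were lower between the bleo groups. Of 3 mesothelial markers 2 and 1 were lower, and 2 were higher between the bleo groups. Of 4 smooth muscle and pericyte markers 1 was higher and 2 lower in WT, 2 and 2 in labelled Pear1-/- libraries, and 1 and 1 between the bleo groups. Of 4 erythroid markers 3 were tested. In WT 0 were higher and 2 lower, in labelled Pear1-/- libraries 1 and 1, and between the bleo groups 2 and 0. The WT counts given here for macrophage, leukocyte, fibroblast, plasma cell, epithelial, mesothelial and erythroid markers were the same without WT vehicle replicate 2. In that fit 4 endothelial and 5 T and NK cell markers were lower, 4 B cell markers were higher, neutrophil markers were 1 higher and 3 lower, and smooth muscle and pericyte markers 1 higher and 1 lower. Which of these cells held the transcripts of the 50 genes was not tested.

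The genes whose pattern was most like that of the 50 together were found by Spearman's correlation over the 12 libraries with the median of the 50, among 10545 genes outside every list whose mean log2 CPM was 3 or more. The 10 most like were Trmt6, Npl, Mical2, Lama5, Borcs7, Aars, Immt, Fst, Kpnb1 and Lxn, with coefficients from 0.965 to 0.972. The 12 libraries share their groups, so this describes the order of 4 groups more than 12 separate points. Fst, which encodes the activin inhibitor follistatin, had 55.8, 71 and 76.7 in WT vehicle, 62.5, 49.2 and 69.8 in labelled Pear1-/- vehicle, 512, 483 and 493 in WT bleo and 1223, 1227 and 1189 in labelled Pear1-/- bleo. Its values chose it, so its log2 fold changes are a description with no test: 2.88 in WT, 4.33 in labelled Pear1-/- libraries and 1.28 between the bleo groups.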

How the data were processed

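RNA of sorted CD140a+ lung cells was sequenced in 12 libraries, 3 in each of 4 groups given by the sample labels. Reads were aligned by the authors with HISAT2 to the mouse genome (GRCm38, mm10, in the submitters' processing notes, with FastQC for quality), and the counting program and its use of strand are not given in the sources used here. The deposited counts are raw reads per gene, and the deposited normalized values are a linear signal made by the authors, the raw count divided by 1 size factor per library. All 12 columns of each table belong to these samples, with 0 others.

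Raw counts were fitted with edgeR 4.0.16 (R 4.3.3; TMM scaling, filterByExpr, quasi-likelihood test, 1 mean per group), with Benjamini-Hochberg adjustment over 17418 genes and a threshold of 0.05. A second rule added the study's fold of 2. A floor of 3 counts was 0.287 to 0.448 CPM per library, for counting error only. The procedure was tested on simulated data. Alternatives used DESeq2 1.42.0, limma 3.58.1, other scalings and filters, and each library left out. Exact permutation of 3 against 3 libraries cannot go below 0.10. Run on the summed marker counts in WT and between the bleo groups, it gave 0.4 for B cell markers in WT and 0.1 for each other sum. It could not have called any of them, and no gene was tested that way.

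The 50 genes and all lists were chosen with earlier results of these data known. Values in every library were given for 22 leads fixed by role and, in each comparison, for the 3 highest and 3 lowest genes; of the other cell cycle genes, the 2 highest and 2 lowest called per list and all G1 cyclins, CDKs and CDK inhibitors were named. Some items that this rule names are not reported here. Promoter sequences are from RefSeq (GRCm38.p6), and motifs were searched on both strands. Tables were made with Python 3.11.15 (pandas 2.3.3, numpy 2.4.6, scipy 1.17.1) and plots with matplotlib 3.10.9.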

Additional observations from a re-analysis of the deposited data

Results flagged for a closer look

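For 26 of the 50 genes the effect of bleo differed between the labelled genotypes by edgeR's test of the difference itself, given here as the log2 fold change in labelled Pear1-/- libraries minus that in WT. Of all genes 17.9% were called larger and 19.1% smaller by the same test, beside 24 and 2 of the 50. Among the spindle and centromere genes called with all 12 libraries the effects were larger in labelled Pear1-/- libraries, Cenpf by 2.29 (adjusted p = 0.00239), Kif2c by 2.27 (adjusted p = 0.00944), Kif20a by 1.95 (adjusted p = 0.00333), Kif11 by 1.80 (adjusted p = 0.00105), Hmmr by 1.16 (adjusted p = 0.00438) and Cenpe by 0.69 (adjusted p = 0.033). Among mitotic kinases and their partners it was Melk by 2.09 (adjusted p = 0.000224), Aurka by 1.28 (adjusted p = 0.00862), Birc5 by 1.07 (adjusted p = 0.00331), Cdca8 by 0.75 (adjusted p = 0.0134) and Plk1 by 1.16 (adjusted p = 0.00857). Among genes for destruction of mitotic proteins it was Cdca3 by 1.27 (adjusted p = 0.00308), Ube2c by 0.87 (adjusted p = 0.026) and Cdc20 by 0.79 (adjusted p = 0.00083). Among cyclins and Cdk1 it was Ccnb1 by 1.36 (adjusted p = 0.000573), Ccnb2 by 1.09 (adjusted p = 0.000656), Cdk1 by 0.75 (adjusted p = 0.00298) and Ccna2 by 0.72 (adjusted p = 0.0153), and among transcription factors E2f8 by 1.57 (adjusted p = 0.00782), Mybl2 by 1.56 (adjusted p = 0.000639) and Foxm1 by 1.42 (adjusted p = 0.00083). The others were Tyms by 0.73 (adjusted p = 0.00141), Rrm1 by 0.67 (adjusted p = 0.000139) and Top2a by 0.51 (adjusted p = 0.00209). The effect was smaller there for 2 genes, with a difference of -1.33 (adjusted p = 0.000928) for E2f1 and -0.49 (adjusted p = 0.00409) for Pcna. Without WT vehicle replicate 2, 23 effects were called larger and 8 smaller, beside 20.4% and 26.0% of all genes, and 24 of the 26 were still called. The spindle genes Kif23 and Nusap1, at -0.62 (adjusted p = 0.141) and -0.30 (adjusted p = 0.426) with all libraries, were among the 8, at -1.29 (adjusted p = 1.28e-06) and -0.66 (adjusted p = 0.0412). Ccna2 and Cdca8 were not, and the calls for Ccna2 and Ube2c were each lost in 9 of 20 other fits.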

How the results depend on the processing

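The counts of genes higher after bleo stayed within 36 to 45 of 50 in WT and 39 to 46 in labelled Pear1-/- libraries over all settings, and no called value of a named gene changed sign under these settings. Between the bleo groups the count of higher genes was 28, 22 to 32 with 1 library left out and 5 with a fold above 2, and that of lower genes was 4, 2 to 4 with 1 library left out, 2 with no filter on low counts and 1 with a fold above 2. Between the vehicle groups the count of higher genes was 1, 0 to 13 with 1 library left out (13 without WT vehicle replicate 2), 2 with library size alone, with upper quartile scaling or with a stricter filter, 10 with no filter, 4 with DESeq2, and 0 with limma, with only these groups fitted or with a fold above 2. The count of lower genes there was 4, 0 to 13 with 1 library left out (13 without WT vehicle replicate 2), 8 with library size alone and 0 with limma or with only these groups fitted. For the difference of the bleo effects, larger effects numbered 24, 20 to 24 with 1 library left out and 15 with a fold above 2, and smaller ones 2, 2 to 8 with 1 library left out (8 without WT vehicle replicate 2), 5 with no filter and 1 with a fold above 2. The cause was not tested.

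Values that changed sign were all below the threshold for a call with 12 libraries, and 1 was called after the change, Mcm4 in WT without WT vehicle replicate 2 (0.23, adjusted p = 0.0136). Cdc6 between the vehicle groups was -0.0313 with library size alone and -0.151 to 0.438 with 1 library left out, and in WT 0.086 with no filter and -0.22 to 0.28. Mcm4 in WT was 0.12 with no filter, 0.0044 with the replicate block, 0.0028 with limma and -0.0931 to 0.23 with 1 library left out. E2f1 in labelled Pear1-/- libraries was -0.0387 with upper quartile scaling and -0.16 to 0.21. Mcm5 between the vehicle groups was -0.14 with library size alone, -0.0697 with upper quartile scaling, -0.0058 with the stricter filter, -0.0049 with only these groups and -0.0508 to 0.10, and between the bleo groups -0.0400 to 0.0716. For the difference of effects, Mcm2 was 0.091 with library size alone, 0.0323 with upper quartile scaling and -0.49 to 0.12, Cenpa 0.0829 and 0.0115 with the same scalings, Mcm5 -0.0488 with no filter and -0.0955 to 0.091, Mki67 -0.0779 to 0.24 and Rrm2 -0.12 to 0.31.

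Library size alone moved the median of all genes to -0.168 in WT, and upper quartile scaling to -0.220. Same-numbered libraries did not deviate together, with correlations of -0.278 to 0.165 over 18 pairs, so the numbers were not taken as pairs. With the replicate block 44 genes were higher in WT, 45 in labelled Pear1-/- libraries, 28 higher and 4 lower between the bleo groups, 1 and 3 between the vehicle groups, and 24 and 2 for the difference. The difference of effects needs all 4 groups, so it has no value with only the groups compared. Vehicle counts of E2f8, Kif2c and Cenpf were low, which limits the precision of their fold changes.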
